A study of Mus musculus with 4 samples.

Results

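Translation initiation factors are the proteins that bring the initiator tRNA, the small ribosomal subunit and the mRNA together and find the start codon. Their transcripts were followed in mouse embryonic stem cells that lack Gcn5 (gene Kat2a), a histone acetyltransferase, and in cells that keep it. The members were all entries whose symbol begins with Eif and a digit from 1 to 6, without Eif2s3y, the eIF2 kinases, the eIF4E-binding proteins, the eIF4E transporter and pseudogene names. This left 49 of 58 such entries, among 23259 genes. Total RNA depleted of ribosomal RNA was sequenced from 4 clones, 2 KO and 2 WT, with 1 library each. All clones come from Gcn5 flox/flox cells of founder lines 6 and 4, derived from blastocysts and grown on mitomycin-treated mouse fibroblasts in 15% serum with 1000 U/mL of LIF. The cells had received an EGFP-Cre vector transiently and were sorted after 72 hours. The KO clones 6C4 and 4C2 grew from GFP-positive cells and lack exons 3 to 18 of Gcn5 on both alleles, and the WT clones 6-1 and 4-1 grew from GFP-negative cells and keep the floxed alleles. Each genotype of a line is thus 1 clone, and clone and genotype cannot be told apart within a line.

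In eukaryotes, eIF2 with GTP carries the initiator tRNA to the small subunit, to which eIF1, eIF1A, eIF3 and eIF5 bind. The cap-binding complex eIF4F, made of the cap binder eIF4E, the scaffold eIF4G and the helicase eIF4A, recruits the mRNA, and eIF5B joins the large subunit. Spent eIF2 is recharged by its exchange factor eIF2B, the step that stress kinases block. Embryonic stem cells are known for a low rate of protein synthesis that increases on differentiation.

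The values are FPKM, a level per transcript length, that the authors scaled to ERCC control RNA, and the sequencing depth is unknown. Kat2a stood at 11.5 FPKM in line 6 KO and 11.5 in line 4 KO, against 34.4 in line 6 WT and 38.7 in line 4 WT, with a log2 fold change of -1.58 ± 0.23 (SE, n = 2 per genotype, limma adjusted p = 0.0112). All genes summed to 538257 FPKM in line 6 KO and 520491 in line 4 KO, against 680168 in line 6 WT and 757931 in line 4 WT. The 10 stem cell markers summed to 3495 FPKM in line 6 KO and 3356 in line 4 KO, against 4225 in line 6 WT and 5329 in line 4 WT. All 10 were lower in KO in both lines, where 86.3% of all tested genes were, and 0 passed the test. The 12 fibroblast markers summed to 324 FPKM in line 6 KO and 244 in line 4 KO, against 271 in line 6 WT and 323 in line 4 WT, with Lum under the filter and none at 0. Of the 11 tested, 0 were lower in KO in both lines, against the same 86.3% of all tested genes. Vim alone stood at 153 FPKM in line 6 KO and 91.7 in line 4 KO, against 137 in line 6 WT and 124 in line 4 WT. Both line 6 clones lay below both line 4 clones for 5 of the 11, where 17.4% of all tested genes did. They lay above for 3, where 16.3% did. The part of fibroblast RNA in the values below was not tested. In such bulk samples fewer cells of a type and less RNA per cell cannot be told apart. The control RNA was added to 1 µg of total RNA, so the values give no amount per cell.

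The initiation factors were among the abundant transcripts. On the FPKM scale 25 of the 49 members had a level of at least 100 FPKM as the mean of the 4 libraries, 8 were under 10 FPKM and 2 under 1 FPKM. The median member had a mean level of 109 FPKM, against 9.68 FPKM for the median of the 11932 genes that averaged 1 FPKM or more. Eif4a1, the main helicase of eIF4F, was the highest with a mean of 1518 FPKM, followed by Eif5a with 511, Eif3k with 403 and Eif2s2 with 382 FPKM. At the low end stood Eif4e1b, an eIF4E paralog known from oocytes, and Eif2c4, with mean levels of 0.128 and 0.157 FPKM. The members together summed to 6958 FPKM in line 6 KO and 6326 in line 4 KO, against 8452 in line 6 WT and 8808 in line 4 WT. Their share of each library's summed FPKM, which does not depend on the spike-in scale, was 1.29% in line 6 KO and 1.22% in line 4 KO, against 1.24% in line 6 WT and 1.16% in line 4 WT. The sums were thus lower in both KO clones and the shares slightly higher in KO within each line.

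**Figure D1:**
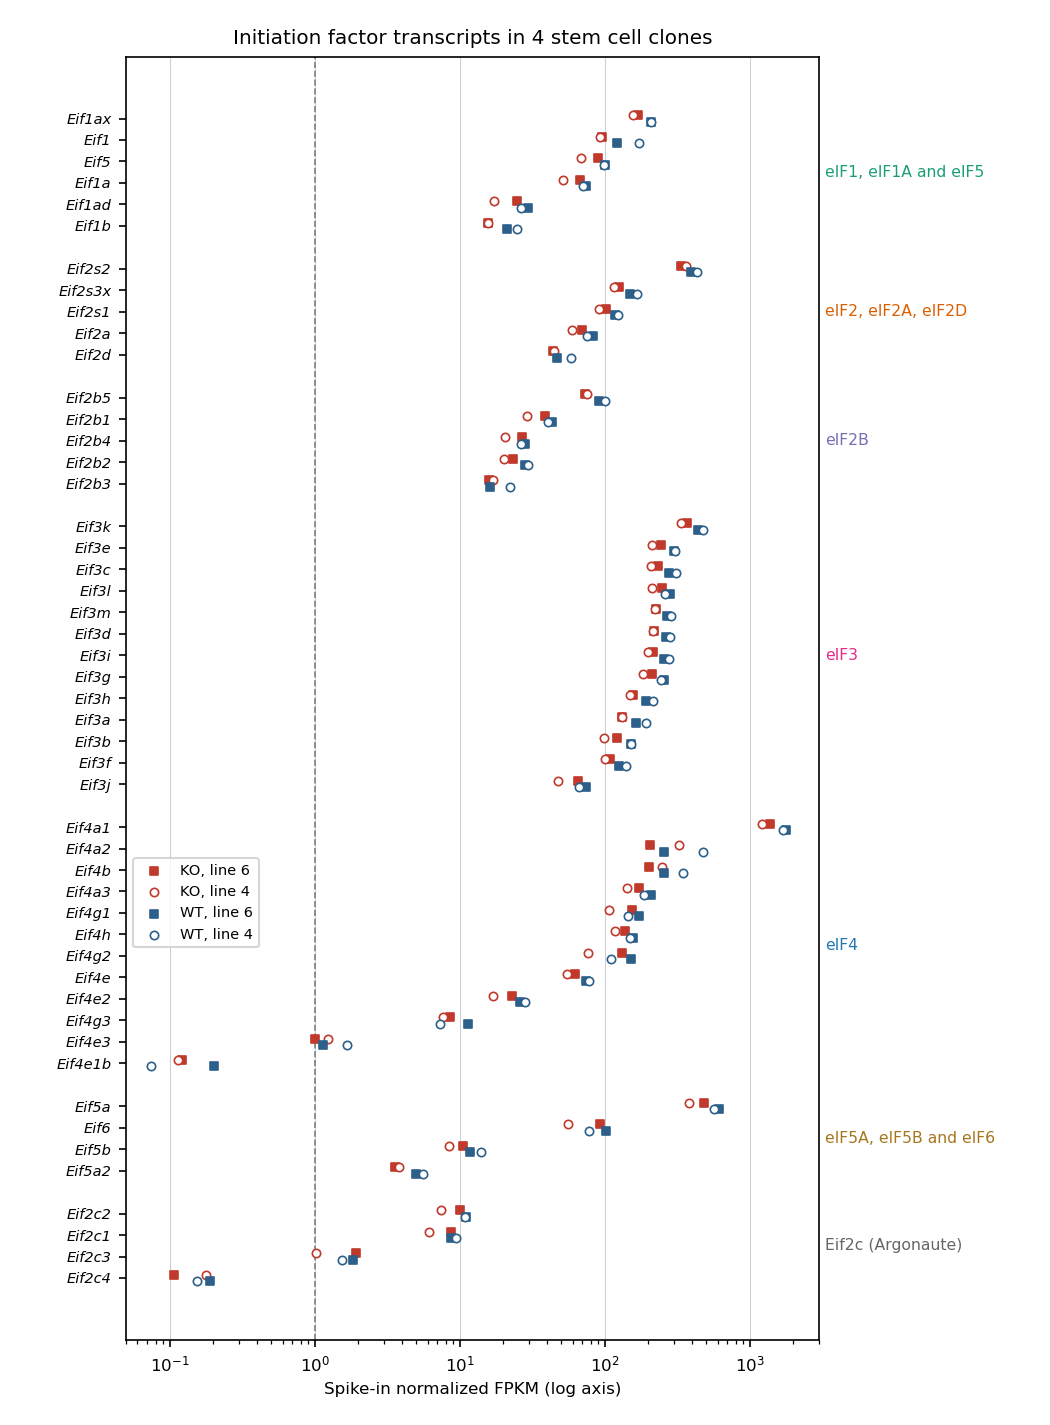
Spike-in normalized FPKM (log axis) of the initiation factor entries by complex, 1 point per library, with KO in red and WT in blue, line 6 as filled squares and line 4 as open circles. The levels run from under 1 FPKM for Eif4e1b and Eif2c4 to over 1000 FPKM for Eif4a1, and in the 13 eIF3 entries both KO points lie left of both WT points.

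To ask which factors changed without Gcn5, KO was set against WT over the 4 clones on log2(FPKM + 1), for the 47 members with a mean of 1 FPKM or more. Initiation factors were listed lower in KO nearly throughout, by about as much as other genes, and 0 of 47 passed the test in either direction. The KO/WT ratio of the median member was 0.846 in line 6 and 0.711 in line 4, and that of the median of all tested genes 0.865 in line 6 and 0.704 in line 4. Lower in KO in both lines were 45 of 47 members, where 86.3% of all tested genes were. Both KO clones lay below both WT clones for 38 members, where 59.8% of all tested genes did. This direction rests on the spike-in scale: the median log2 fold change of the members was -0.34, but -0.036 with each library centred on its median gene and 0.030 after quantile normalization. Such centring removed the shift of the median gene, which was -0.32.

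At an adjusted p under 0.05, limma passed 0.0168% of all tested genes as lower and 0% as higher. At an unadjusted p under 0.05 there were 6 lower and 0 higher members, where 5.46% of all tested genes were lower and 0.0838% higher. The members' adjusted p ran from 0.445 to 0.658. With founder line as a term in the fit 0 members passed too, where 0.763% of all tested genes passed as lower and 0.0335% as higher. With centred values in addition, again 0 members passed, where 0.0168% passed as lower and 0.26% as higher.

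The members lay close together. The SD of the log2 fold change over the 47 members was 0.092, and over all tested genes it was 0.18. The latter have a median level of 9.68 FPKM, against 109 for the members, and a lowest log2 fold change of -6.28. Genes of like level were not compared, for the SD or for the counts set against all tested genes. Set against the shift of all genes, the median member was at -0.053 in line 6 and -0.026 in line 4. Below the median gene in both lines were 21 members, where 27.1% of all tested genes were, and above it in both lines were 7, where again 27.1% were.

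**Figure D2:**
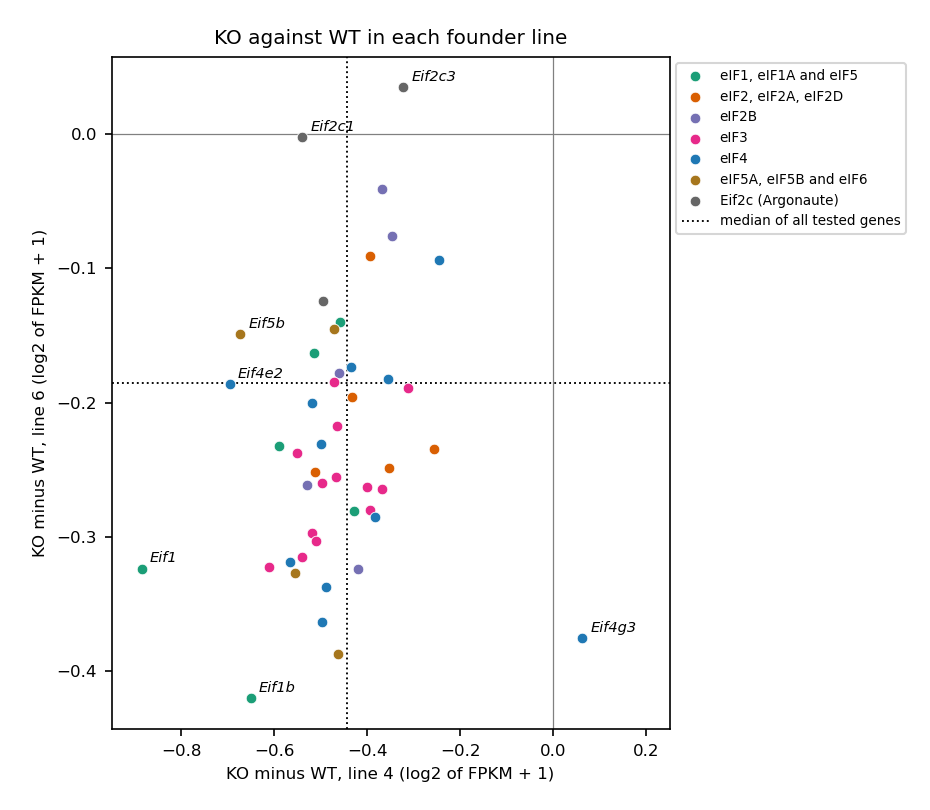
KO minus WT in log2 of FPKM + 1 for the tested members, 1 point per member coloured by complex, with line 4 on the x axis, line 6 on the y axis and the median of all tested genes (-0.19 in line 6 and -0.44 in line 4) marked. The members cluster around the median gene; Eif1 has the lowest value in line 4 (-0.89), and Eif4g3 and Eif2c3 have opposite signs in the 2 lines.

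The start codon factors, which scan the mRNA with the small subunit, include the member with the lowest log2 fold change in the fit of all 4 clones. Eif1, which keeps the scanning complex from starting at a wrong codon, stood at 96.4 FPKM in line 6 KO and 93.1 in line 4 KO, against 121 in line 6 WT and 173 in line 4 WT. The KO clones were close to each other and the WT clones further apart, with log2 differences of -0.32 in line 6 and -0.89 in line 4. Over both lines the log2 fold change of Eif1 was -0.60 ± 0.22 (SE), with an adjusted p of 0.445, a value that limma gave to each of the 6 members of this group. It ran from -0.35 without line 4 WT to -0.86 without line 6 WT. With any 1 library left out, Eif1 was not the lowest member. Eif6 was lower than Eif1 without line 4 WT (-0.51) or line 6 KO (-0.67), and Eif4a2 was without line 6 WT (-0.89) or line 4 KO (-0.76). These refits were read only for the members named for KO against WT, so the lowest of all members is not given. The paralog Eif1b stood at 15.6 FPKM in line 6 KO and 15.6 in line 4 KO, against 21.2 in line 6 WT and 25.01 in line 4 WT (-0.54 ± 0.23). Set against the median gene, Eif1 was at -0.14 in line 6 and -0.44 in line 4, and Eif1b at -0.24 in line 6 and -0.21 in line 4. Of the eIF1A genes, whose protein fills the decoding site during scanning, Eif1ax stood at 170.5 FPKM in line 6 KO and 155 in line 4 KO, against 207 in line 6 WT and 209.6 in line 4 WT (-0.35 ± 0.20). Eif1a stood at 67.2 FPKM in line 6 KO and 51.4 in line 4 KO, against 74.1 in line 6 WT and 71.0 in line 4 WT (-0.30 ± 0.22). Both KO clones lay below both WT clones for all 6 members, where 59.8% of all tested genes did. The 6 also include Eif5, the GTPase activator of eIF2, and Eif1ad, which was listed with this group without evidence here of a role in scanning.

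Among the carriers of the initiator tRNA, Eif2s2, the beta subunit of eIF2, was the most abundant, at 334 FPKM in line 6 KO and 365 in line 4 KO, against 393 in line 6 WT and 436 in line 4 WT (log2 fold change -0.25 ± 0.19, adjusted p = 0.445). Its differences were much alike, -0.23 in line 6 and -0.26 in line 4. Set against the median gene, however, Eif2s2 was at -0.049 in line 6 and 0.19 in line 4. The gamma subunit Eif2s3x, which binds GTP and the tRNA, stood at 126 FPKM in line 6 KO and 116 in line 4 KO, against 149.6 in line 6 WT and 166 in line 4 WT (-0.38 ± 0.20, adjusted p = 0.445) and had the lowest log2 fold change of the group. Eif2d, which can deliver initiator tRNA without eIF2, had the highest and stood at 43.7 FPKM in line 6 KO and 44.5 in line 4 KO, against 46.6 in line 6 WT and 58.8 in line 4 WT (-0.24 ± 0.22, adjusted p = 0.453). Both KO clones were under both WT clones for all 5 members, against 59.8% of all tested genes, although for Eif2d the line 6 clones were close.

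The subunits of eIF2B ranged in mean level from 17.8 FPKM for Eif2b3 to 85.0 FPKM for Eif2b5. Eif2b5, the catalytic subunit, stood at 72.9 FPKM in line 6 KO and 75.0 in line 4 KO, against 91.5 in line 6 WT and 101 in line 4 WT (-0.37 ± 0.21, adjusted p = 0.445). Eif2b2, a regulatory subunit, stood at 23.5 FPKM in line 6 KO and 20.3 in line 4 KO, against 28.3 in line 6 WT and 29.8 in line 4 WT (-0.40 ± 0.23, adjusted p = 0.445). The genotypes did not overlap for either. They did for Eif2b3, which works with Eif2b5 in the catalytic part, at 15.8 FPKM in line 6 KO and 16.9 in line 4 KO, against 16.3 in line 6 WT and 22.1 in line 4 WT (-0.20 ± 0.24, adjusted p = 0.521), and for Eif2b4, a further regulatory subunit, at 26.9 FPKM in line 6 KO and 20.5 in line 4 KO, against 28.4 in line 6 WT and 26.4 in line 4 WT (-0.21 ± 0.23, adjusted p = 0.499). For Eif2b3 and Eif2b4 the KO and WT clones of line 6 were nearly equal.

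The eIF3 complex, the largest of the factors and a platform for the others on the small subunit, had closely grouped values. A mean of at least 100 FPKM was reached by 12 of its 13 subunits. Eif3k was the highest and Eif3j, a loosely bound subunit, the lowest in every library, with a ratio of 5.65 in line 6 KO and 7.01 in line 4 KO, against 5.94 in line 6 WT and 7.10 in line 4 WT. Spearman's rho of the subunits' levels between libraries was 0.907 to 0.995, a description over 13 subunits that share those libraries. For all 13, against 59.8% of all tested genes, both KO clones lay below both WT clones, with log2 differences from -0.32 to -0.18 in line 6 and from -0.61 to -0.31 in line 4. The SD of the log2 fold change over the subunits was 0.056, close to that over the eIF2 group, 0.057, and the adjusted p was 0.445 for every subunit.

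Eif3k stood at 366 FPKM in line 6 KO and 335 in line 4 KO, against 439 in line 6 WT and 473 in line 4 WT (-0.38 ± 0.19). Eif3b had the lowest log2 fold change of the subunits and stood at 121 FPKM in line 6 KO and 98.9 in line 4 KO, against 152 in line 6 WT and 152 in line 4 WT (-0.47 ± 0.21). Eif3l had the highest and stood at 249 FPKM in line 6 KO and 211 in line 4 KO, against 284 in line 6 WT and 262 in line 4 WT (-0.25 ± 0.20). The gap between the lowest and the highest subunit was about the size of 1 SE.

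The eIF4 group holds cap binders, scaffolds and helicases and spans the widest range of levels. Eif4a1 stood at 1381 FPKM in line 6 KO and 1209 in line 4 KO, against 1776 in line 6 WT and 1707 in line 4 WT (-0.43 ± 0.19, adjusted p = 0.445), with both KO clones below both WT clones. Its paralog Eif4a2 stood at 206 FPKM in line 6 KO and 323 in line 4 KO, against 258 in line 6 WT and 479 in line 4 WT (-0.44 ± 0.26, adjusted p = 0.445). Within each line Eif4a2 was lower in KO, but the WT clone of line 6 lay below the KO clone of line 4. Eif4e, the cap-binding subunit, stood at 62.8 FPKM in line 6 KO and 55.03 in line 4 KO, against 73.8 in line 6 WT and 78.2 in line 4 WT (-0.36 ± 0.21), and Eif4e2, a cap binder known as a repressor of translation, at 22.8 FPKM in line 6 KO and 16.9 in line 4 KO, against 26.1 in line 6 WT and 28.1 in line 4 WT (-0.44 ± 0.24; adjusted p = 0.445 for both). The genotypes did not overlap for these cap binders. Eif4g1, the main scaffold, stood at 153 FPKM in line 6 KO and 107 in line 4 KO, against 173 in line 6 WT and 145 in line 4 WT (-0.30 ± 0.22, adjusted p = 0.445), with the line 6 KO clone above the line 4 WT clone. Eif4g3, its less abundant paralog, stood at 8.52 FPKM in line 6 KO and 7.65 in line 4 KO, against 11.3 in line 6 WT and 7.29 in line 4 WT (-0.16 ± 0.27, adjusted p = 0.637). It was the only tested member listed higher in KO in line 4. Eif4e1b, under the filter, stood at 0.121 FPKM in line 6 KO and 0.114 in line 4 KO, against 0.202 in line 6 WT and 0.0740 in line 4 WT. Of the 11 tested members of the group 6 had no overlap between genotypes, against 59.8% of all tested genes, and 10 were lower in KO in both lines, against 86.3%.

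Of the late-acting factors, Eif5a, which carries the amino acid hypusine and acts in elongation as well, stood at 487 FPKM in line 6 KO and 383 in line 4 KO, against 611 in line 6 WT and 563 in line 4 WT (-0.44 ± 0.20, adjusted p = 0.445). Its paralog Eif5a2 stood at 3.56 FPKM in line 6 KO and 3.80 in line 4 KO, against 4.96 in line 6 WT and 5.61 in line 4 WT (-0.42 ± 0.26, adjusted p = 0.445). Both were below the median gene, Eif5a at -0.14 in line 6 and -0.11 in line 4 and Eif5a2 at -0.20 in line 6 and -0.018 in line 4, with no overlap between genotypes. Eif6, which keeps the large subunit from joining too early, stood at 92.5 FPKM in line 6 KO and 55.5 in line 4 KO, against 102 in line 6 WT and 77.3 in line 4 WT (-0.31 ± 0.25, adjusted p = 0.445), and its genotypes overlapped. The median log2 fold change of these factors and Eif5b, the GTPase of subunit joining, was -0.42. It ran from -0.59 without line 6 KO to -0.26 without line 4 KO.

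The 4 Eif2c entries carry an older name of the Argonaute proteins, which bind microRNAs and are not part of the initiation machinery. Eif2c2 was the most abundant, at 10.1 FPKM in line 6 KO and 7.45 in line 4 KO, against 11.1 in line 6 WT and 10.9 in line 4 WT (-0.31 ± 0.26, adjusted p = 0.446), with no overlap between genotypes. Eif2c3 stood at 1.92 FPKM in line 6 KO and 1.02 in line 4 KO, against 1.85 in line 6 WT and 1.53 in line 4 WT (-0.14 ± 0.27, adjusted p = 0.658), and its 4 values did not order by genotype. Eif2c4, under the filter, stood at 0.107 FPKM in line 6 KO and 0.178 in line 4 KO, against 0.189 in line 6 WT and 0.154 in line 4 WT. Without the Eif2c entries the median log2 fold change of the 44 tested members was -0.36.

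Regulators and partners of these factors were also listed lower in KO, with 0 passing in either direction. Lower in both lines were 6 of 6 genes of the eIF2 kinases and phosphatase, 14 of 14 of cap-binding control and mTOR signalling, 8 of 9 poly(A)-binding and reinitiation factors, 9 of 9 elongation genes and 4 of 5 termination factors, where 86.3% of all tested genes were. Their median log2 fold changes were -0.37, -0.38, -0.33, -0.36 and -0.29 in that order of lists, against -0.32 over all tested genes. The lowest p was that of Eef1b2, an exchange factor of elongation factor 1A, at 469.5 FPKM in line 6 KO and 465 in line 4 KO, against 630.4 in line 6 WT and 876 in line 4 WT (-0.67 ± 0.20, adjusted p = 0.445). It passed with founder line as a term (adjusted p = 0.0191) but not with that term on centred values (0.672). The others named by p had an adjusted p of 0.445 each. Their log2 fold changes were -0.51 ± 0.19 for Eef1a1, which brings tRNAs to the ribosome, -0.62 ± 0.25 for Tsc2 and -0.43 ± 0.24 for Mtor, an inhibitor and the kinase of mTOR signalling, -0.50 ± 0.21 for Pabpc1 and -0.42 ± 0.21 for Paip2, the poly(A)-binding protein and its repressor. They were -0.39 ± 0.23 for Ppp1r15b and -0.38 ± 0.23 for Ppp1r15a, which direct the eIF2 phosphatase, and -0.34 ± 0.22 for Etf1 and -0.30 ± 0.23 for Hbs1l, a release factor and a rescue factor.

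The founder lines were then compared, line 6 over line 4, with both genotypes in each. Here, and with genotype as a term but no centring, each SE and p-value used the spread pooled over genes of like level. The test passed 0 of 47 members, and 9 members had clones of the lines that did not overlap. In this fit 0.947% of all tested genes passed as higher and 1.03% as lower in line 6. At an unadjusted p under 0.05 there were 0 higher members and 1 lower, Eif4a2, where 3.46% of all tested genes were higher and 5.16% lower. With genotype as a term, 2 members passed as higher and 1 as lower, where 3.67% and 5.46% of all tested genes did. With centring alone 10 passed as higher and 2 as lower, where 16.4% and 13.8% did. With genotype as a term and centring, 9 passed as higher and 2 as lower, where 16% and 13.5% did. Both line 6 clones lay above both line 4 clones for 6 members, Eif2b4, Eif2c3, Eif4g1, Eif4g2, Eif4g3 and Eif6, where 16.3% of all tested genes did. Both lay below for 3, Eif2b3, Eif4a2 and Eif4e3, where 17.4% did.

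Eif4a2, which shares the helicase role with Eif4a1, had the largest line difference of the members. Its line 6 level was 0.639 times that of line 4 in KO and 0.538 times in WT. The log2 fold change between lines was -0.77 ± 0.39 (adjusted p = 0.562, and 0.000597 with genotype as a term), and the adjusted p ran from 0.000597 to 1 over the alternatives. That of Eif4a1 was 0.12 ± 0.44 (adjusted p = 0.999, and 0.0194 to 1 over the alternatives, with 1 of 10 past the threshold). The ratio of Eif4a1 to Eif4a2, which does not depend on a library's scale, was 6.69 in KO and 6.89 in WT of line 6, against 3.74 in KO and 3.57 in WT of line 4. It averaged 6.79 ± 0.145 in line 6 and 3.65 ± 0.126 in line 4 (SD, n = 2 each), a description of a pair picked out by the line difference of Eif4a2. An exact permutation test of 2 clones against 2, two-sided, cannot go below p = 0.333. No window of 50 bases is shared by the transcripts of the pair, but 65.3% of those of Eif4a1 are shared with other genes, nearly all with the pseudogene Eif4a-ps4.

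Entries for small nucleolar RNAs inside these genes were looked at after the line values were seen, and are given as a description. Such RNAs guide the modification of ribosomal RNA and are commonly released from introns of host genes for the translation machinery. Snord2, inside Eif4a2 and on its strand, stood at 381 FPKM in line 6 KO and 542 in line 4 KO, against 457 in line 6 WT and 799 in line 4 WT. Snora81, inside the same gene, stood at 136 FPKM in line 6 KO and 186 in line 4 KO, against 168 in line 6 WT and 278 in line 4 WT. Both line 6 clones lay below both line 4 clones, with log2 fold changes between lines of -0.66 for Snord2 and -0.59 for Snora81 (adjusted p = 0.733 and 0.762, and 0.00361 and 0.0206 with genotype as a term). Snord66, inside Eif4g1, stood at 140.4 FPKM in line 6 KO and 89.8 in line 4 KO, against 152 in line 6 WT and 125 in line 4 WT. Both line 6 clones lay above both line 4 clones for Snord66 and Eif4g1, with log2 fold changes of 0.46 for Snord66 and 0.38 for Eif4g1. Their limma adjusted p-values were 0.906 and 0.982, 0.109 and 0.204 with genotype as a term, and 0.00959 and 0.013 with genotype as a term and centring. The other small RNA entries inside members were Snora19 in Eif3a, at 94.5 FPKM in line 6 KO and 81.8 in line 4 KO, against 99.7 in line 6 WT and 138 in line 4 WT, Snora28 in Eif5, at 92.97 FPKM in line 6 KO and 61.3 in line 4 KO, against 91.96 in line 6 WT and 86.6 in line 4 WT, and the microRNA entry Mir1956 in Eif4e, at 2.01 FPKM in line 6 KO and 3.43 in line 4 KO, against 4.88 in line 6 WT and 3.11 in line 4 WT. The lines overlapped for Snora19 and Mir1956. Snora28 was higher in both line 6 clones, while its host Eif5 overlapped between the lines, and Mir1956 was lower in line 6 in KO and higher in WT, the opposite of Eif4e in both. Reads from the host transcript and from the mature small RNA cannot be told apart in these entries. The box C/D RNAs inside Eif4a2 and Eif4g1 are printed to show what these entries count, from GENCODE transcripts on GRCm38, Snord2 at chr16:23108953-23109021, plus strand, and Snord66 at chr16:20684239-20684313, plus strand. Capitals mark the last CTGA, the D box letters, and TGATGA, the C box letters, where these occur.
Snord2: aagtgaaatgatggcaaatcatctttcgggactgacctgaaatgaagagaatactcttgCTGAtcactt
Snord66: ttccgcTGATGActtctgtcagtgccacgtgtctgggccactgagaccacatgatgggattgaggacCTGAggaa

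**Figure D3:**
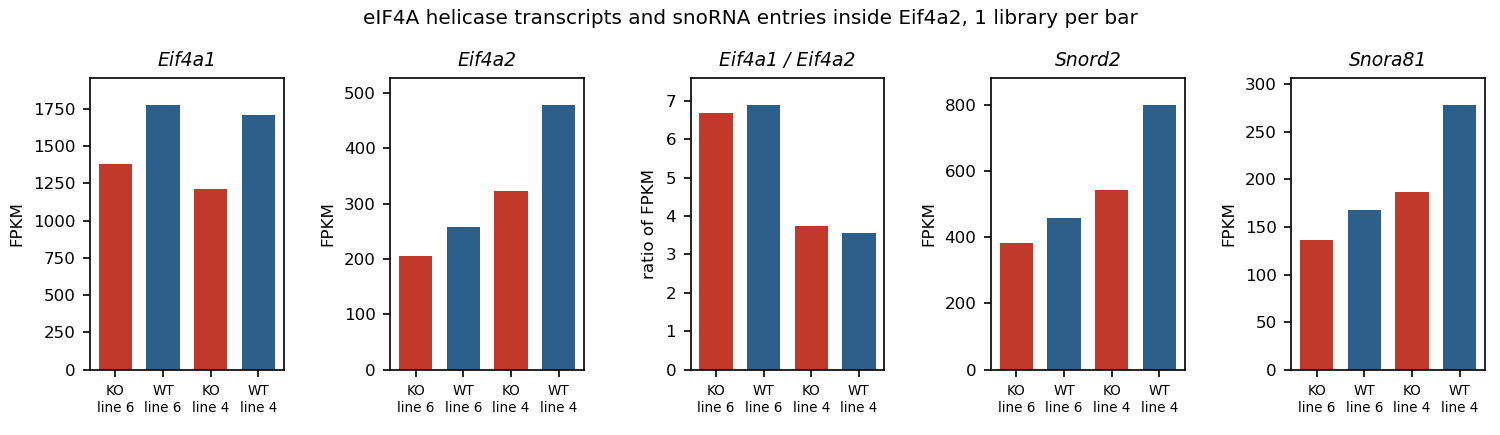
Levels in FPKM of Eif4a1, Eif4a2 and the small RNA entries inside Eif4a2, and the Eif4a1/Eif4a2 ratio, 1 library per bar, KO in red and WT in blue, with no error bars. The ratio is 6.69 in KO and 6.89 in WT of line 6, against 3.74 in KO and 3.57 in WT of line 4, and Eif4a2, Snord2 and Snora81 are lower in both line 6 libraries.

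Eif4g2 and Eif4b were also named after their line values were seen. Eif4g2, a scaffold without the eIF4E site that serves cap-independent initiation, stood at 131 FPKM in line 6 KO and 77.2 in line 4 KO, against 151 in line 6 WT and 111 in line 4 WT. This made line 6 1.70 times as high in KO and 1.36 times in WT, and the log2 fold change was 0.60 ± 0.36 (adjusted p = 0.725; 0.0218 with genotype as a term, with a range of 0.00402 to 1 over the alternatives). Eif6 was 1.67 times as high in line 6 in KO and 1.32 times in WT, and its log2 fold change was 0.56 ± 0.36 (adjusted p = 0.758; 0.0416 with genotype as a term, with a range of 0.004 to 1). Both line 6 clones lay above both line 4 clones for either gene. Eif4b, a cofactor of eIF4A, stood at 201 FPKM in line 6 KO and 247 in line 4 KO, against 255 in line 6 WT and 348 in line 4 WT, lower in line 6 within each genotype (-0.37 ± 0.38, adjusted p = 0.994). The lines overlapped for Eif4b, with the line 6 WT clone above the line 4 KO clone. Its adjusted p ran from 0.00893 to 1 over the alternatives and passed in 3 of 10, among them genotype as a term with centring (0.0325). The eIF3 subunits had line differences from -0.12 to 0.29 with an SD of 0.11 over the 13, against 0.24 over all tested members, and the lines overlapped for each. Eif3j, at 0.29, passed with centring, with quantile normalization and with genotype as a term and centring (adjusted p = 0.0239 in that fit).

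**Figure D4:**
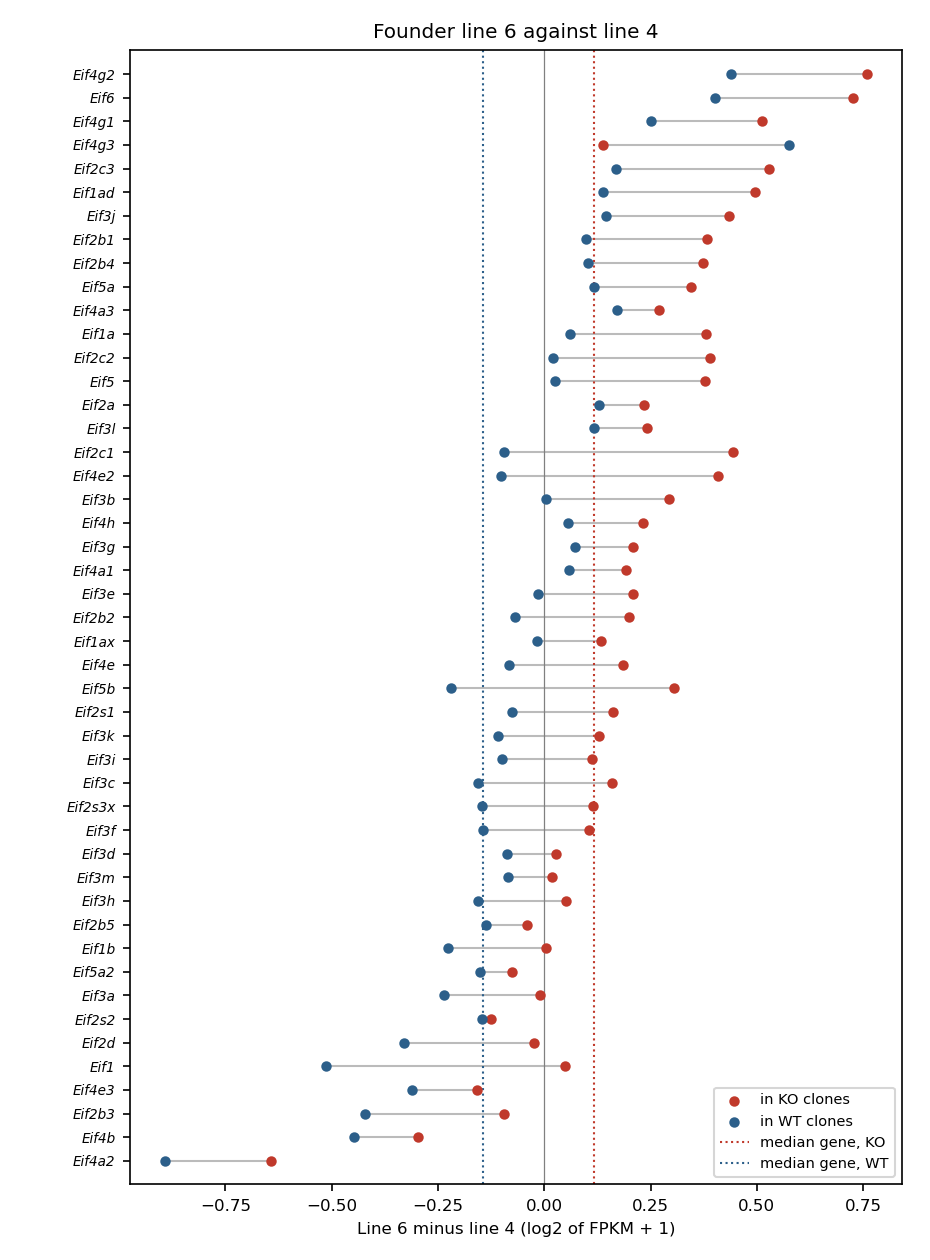
Line 6 minus line 4 in log2 of FPKM + 1 for the tested members, with KO clones in red, WT clones in blue and the median of all tested genes (0.12 in KO and -0.14 in WT) marked. Eif4a2 and Eif4b are among the 9 members below 0 in both genotypes, and Eif4g2, Eif6 and Eif4g1 are among the 20 above 0 in both.

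The ratios of other paralog pairs differed less between the lines. Eif5a over Eif5a2 was 137 in KO and 123 in WT of line 6, against 101 in KO and 100.4 in WT of line 4. Eif2b4 over Eif2b5, which are 2 subunits of 1 complex, was 0.369 in KO and 0.31 in WT of line 6, against 0.274 in KO and 0.262 in WT of line 4. Eif1a over Eif1ax was 0.394 in KO and 0.358 in WT of line 6, against 0.331 in KO and 0.339 in WT of line 4. These 3 ratios were higher in both line 6 clones. Over the 4 libraries Eif1 over Eif1b ran from 5.69 to 6.91, Eif4e over Eif4e2 from 2.75 to 3.25 and Eif4g1 over Eif4g3 from 14.01 to 19.9, with overlap between the lines in each.

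Promoters of eIF4F genes are shown because the helicase pair differed in its line values and because many initiation factor genes are known targets of Myc, which with Max binds the E-box CACGTG. RefSeq promoters, from 250 bases before to 50 after each start (GRCm38.p6), were found by current or older symbol for 39 members, with 49 starts. For the set of all tested genes they were found by current symbol only. CACGTG, which reads alike on both strands, was in 12 of the 49 promoters, 24.5%, against 10.5% of promoters of tested genes and 7.15% of all promoters. The Ets core CCGGAA was in 44.9% of member promoters on either strand, against 27.7% of those of tested genes and 14.9% of all. CCAAT was in 28.6%, against 38.6% and 37.4%, and TATAAA in 6.12%, against 6.85% and 13.6%. All were searched on both strands, and none contains another. Members with CACGTG were Eif1b, Eif3a, Eif3f, Eif3k, Eif4a1, Eif4e, Eif4g1, Eif4h, Eif5a and Eif5a2. The median KO log2 fold change was -0.40 for these 10 and -0.34 for the other 28 tested members with a promoter. It was -0.34 with CCGGAA and -0.36 without, -0.37 with CCAAT and -0.33 without, and -0.34 with TATAAA and -0.35 without. Between the lines, the log2 fold changes of the 10 members with CACGTG ran from -0.12 for Eif3a to 0.38 for Eif4g1. Whether any motif bears on the line or KO values was not tested. The bases from -250 to -31 are printed with CACGTG in capitals, for Eif4a1 at chr11:69672454-69672673, minus strand, Eif4a2 at chr16:23107218-23107437, plus strand, and Eif4g1 at chr16:20672477-20672696, plus strand. The motif begins at position -189 in Eif4a1 and at -54 in Eif4g1, and this stretch of Eif4a2 has none.
Eif4a1: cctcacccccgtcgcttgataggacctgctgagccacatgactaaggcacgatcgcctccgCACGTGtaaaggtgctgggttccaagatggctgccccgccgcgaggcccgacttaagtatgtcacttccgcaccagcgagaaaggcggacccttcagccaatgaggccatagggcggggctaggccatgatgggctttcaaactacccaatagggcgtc
Eif4a2: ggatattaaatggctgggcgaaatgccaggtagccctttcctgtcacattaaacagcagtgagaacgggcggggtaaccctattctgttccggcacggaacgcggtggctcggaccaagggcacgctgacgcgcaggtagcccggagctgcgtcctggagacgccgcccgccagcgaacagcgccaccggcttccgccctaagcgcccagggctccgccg
Eif4g1: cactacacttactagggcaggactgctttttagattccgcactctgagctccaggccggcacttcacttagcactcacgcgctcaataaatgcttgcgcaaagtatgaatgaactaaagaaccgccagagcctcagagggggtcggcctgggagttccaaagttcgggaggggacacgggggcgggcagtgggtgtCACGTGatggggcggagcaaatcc

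Some members share sequence with other genes, and how reads with several matches were counted is unknown here. In the longest coding transcript of each member (GENCODE), 22 of 49 share no window of 50 bases with a transcript of another gene. Over 20% of windows are shared in 9, Eif1, Eif2s2, Eif2s3x, Eif3e, Eif3h, Eif3j, Eif3m, Eif4a1 and Eif4a3, and their levels are uncertain for that reason.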

How the data were processed

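The authors deposited 1 FPKM value per gene and library, normalized to spike-ins per the file headers. Per the labels' protocols, ERCC RNA was added to 1 µg of total RNA before a stranded, ribosomal RNA depleted library was made. The submitters' processing notes name Bowtie 0.12.8, TopHat2 2.0.9, affy, HTSeq, edgeR and mm9, with no role for any. The use of the spike-ins is not stated, and with a scale set per library a change of all genes rests on them. Of 23376 entries per library, 92 spike-ins and 25 entries not found in every file were left out. Depth is unknown, so no counting interval is given.

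The 11932 genes averaging 1 FPKM or more were fitted on log2(FPKM + 1), which understates changes of low genes. limma 3.58.1 in R 4.3.3 was used with a trended prior, two-sided, with Benjamini-Hochberg adjustment over all these genes and a threshold of 0.05. The fit was tested on simulated data with independent noise of the same SD for every gene. Those data had no founder line effect and no shift of all genes. Replicate numbers mark founder lines, as the clone names show, so KO and WT pair by line (r = 0.70 between deviations from the group means of same-numbered clones). The main fit has no block. In KO against WT, limma's prior had a weight of 16.4 degrees of freedom. The P-values of that fit thus rest mostly on the spread pooled over genes of like level. The gene's own spread between clones, lines included, weighs less. In the line fit, and with a block on the deposited scale, the weight of limma's prior was infinite. There each SE and p-value used only the spread pooled over genes of like level, not the gene's own spread between clones. The members and lists were chosen with earlier results of these data known. Named members are those past a test, in each complex the most abundant and those with the lowest and highest KO log2 fold change, paralogs, members of opposite sign in the lines and those under the filter. Of each other list the 2 with the lowest p are named. Alternatives changed the pseudocount, filter, scaling and block, or left out each library.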

Additional observations from a re-analysis of the deposited data

Results flagged for a closer look

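Of the 47 tested members, 2 had KO minus WT differences of opposite sign in the founder lines, where 12.7% of all tested genes did. On the log2(FPKM + 1) scale Eif4g3 was at -0.38 in line 6 and at 0.062 in line 4, and Eif2c3 was at 0.035 in line 6 and at -0.32 in line 4. With 1 KO and 1 WT clone per line, the difference between the lines was not tested.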

How the results depend on the processing

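In KO against WT 0 initiation factors passed under every alternative run. Genes past the threshold numbered 2, with 95 under the replicate block, 33 under the replicate block with centred values, 91 under the block with a robust spread, 11 with a minimum mean of 10 FPKM (chosen after the data were seen), and 0 with no filter, centring or quantile normalization. They ranged from 0 to 133 when a library was left out, with 20 without line 4 WT, 133 without line 6 WT and 0 without either KO clone. Kat2a did not pass where the count was 0. The members' median relative to the median gene was 0.0089 with a pseudocount of 0.1 FPKM, -0.19 with no filter and 0.029 after quantile normalization, and -0.084 to 0.0036 with a library left out. Centring, with or without the block, gave a median log2 fold change of -0.036 over the members, -0.077 for the start codon factors, 0.0048 for eIF2, -0.013 for eIF2B, -0.056 for eIF3, -0.054 for eIF4 and -0.11 for the late factors. Quantile normalization gave 0.030 over the members, -0.021 for the start codon factors, 0.074 for eIF2, 0.033 for eIF2B, 0.028 for eIF3, 0.030 for eIF4 and -0.027 for the late factors. With centring, with or without the block, the sign turned to 0.0068 for Eif1a, 0.10 for Eif2b3, 0.094 for Eif2b4, 0.16 for Eif2c3, 0.063 for Eif2d, 0.060 for Eif2s2, 0.055 for Eif3l, 0.0013 for Eif4g1 and 0.15 for Eif4g3. With quantile normalization it turned to 0.047 for Eif1a, 0.026 for Eif1ax, 0.13 for Eif2b3, 0.14 for Eif2b4, 0.057 for Eif2c3, 0.12 for Eif2d, 0.15 for Eif2s2, 0.061 for Eif3k, 0.16 for Eif3l, 0.030 for Eif4a1, 0.082 for Eif4g1, 0.14 for Eif4g3, 0.037 for Eif5a and 0.051 for Eif6. Leaving out line 4 WT gave 0.0063 for Eif2b3 and 0.0034 for Eif4a2, leaving out line 6 WT gave 0.13 for Eif4g3, and leaving out line 4 KO gave 0.12 for Eif2c3 and 0.055 for Eif6. The opposite ends of these ranges were -0.42 for Eif2b3 and -0.89 for Eif4a2 without line 6 WT, -0.44 for Eif4g3 without line 4 WT, and -0.41 for Eif2c3 and -0.67 for Eif6 without line 6 KO. The cause of these turns was not tested beyond the scale or library changed.

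Between the lines 236 genes passed, with 0 without a filter, 3602 with centring, 3865 with quantile normalization, 1089 with genotype as a term, 3531 with genotype as a term and centring, 49 with a minimum mean of 10 FPKM, and 7 to 1607 with a library left out. That was 853 without line 4 WT, 7 without line 6 WT, 1607 without line 4 KO and 21 without line 6 KO. Of the 47 tested members, 12 passed with centring, 14 with quantile normalization, 3 with genotype as a term and 11 with genotype as a term and centring. In that order, 3602, 3865, 1089 and 3531 of all 11932 tested genes passed. The members' median relative to the median gene was 0.064 with no filter and 0.066 with a minimum mean of 10 FPKM, and 0.048 to 0.12 with a library left out. With a library left out the members' median log2 fold change ran -0.17 to 0.32, and by complex -0.11 to 0.36 for the start codon factors, -0.26 to 0.24 for eIF2, -0.20 to 0.33 for eIF2B, -0.23 to 0.26 for eIF3, -0.12 to 0.32 for eIF4, -0.17 to 0.44 for the late factors. Eif4a1 turned to -0.057 without line 6 WT and to -0.12 without line 4 KO, and was at most 0.37, without line 4 WT. Unknown depth limits the low members most.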
